A study of Mus musculus with 3 samples.

Results

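Antibody genes were followed through RNA sequencing of brain vessels from 3-month-old mice: the constant genes of the kappa light chain (Igkc), of 3 IgG heavy chains (Ighg1, Ighg2b and Ighg3) and of the IgM heavy chain (Ighm), together with the gene of the joining chain (Jchain). These 6 genes were taken by name, out of 29775 genes with a matched transcript, and all 6 were among the 16307 genes that reached 1 CPM (1 read per 1000000 reads of the scaled library) in at least 1 library. They were listed because of how their reads differed among the libraries of this study, so their ratios are given as a description. Each group had 1 library, and the sources used here do not give its number of animals. In the Cx43-deleted mice (hGFAP-Cre/Cx43fl/fl, genotype Cx43 -/-, background C57BL6-BALB/c), the human GFAP promoter, active in astroglia and their precursors, drives the Cre recombinase that removes the loxP-flanked connexin 43 gene Gja1. The other groups were wild-type mice of the C57BL6-BALB/c background and wild-type mice of the C57BL6 background (WT), with no Cre or floxed allele in their labels. The series sets the Cx43-deleted mice against both WT backgrounds, under a title on connexin 43 and immune quiescence of the blood-brain barrier.

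An antibody is built from paired heavy and light chains, each with a variable part that meets the antigen and a constant part. A mature B cell first makes IgM, using the constant gene Ighm, and can later switch the same variable region to an IgG constant gene by cutting out the DNA between them. When a B cell turns into a plasma cell, transcription of its rearranged heavy and light chain genes becomes very strong, and it makes J chain, which links the units of secreted polymeric IgM and IgA. The healthy brain holds few such cells, and most of them lie at its borders, such as the meninges.

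The 4 IgG heavy chain genes with reads differ most in the hinge, the short exon between the arms and the stem of the antibody, in which cysteines tie the 2 heavy chains together. The hinge exons are shown because they are where these IgG genes can be told apart by their letters. They come from the GENCODE M21 transcripts on GRCm38, are exon 2 of each gene on the minus strand of chromosome 12, and have their cysteine codons in capitals.
Ighg1 (chr12:113329844-113329882): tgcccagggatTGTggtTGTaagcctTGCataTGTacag
Ighg2b (chr12:113307261-113307326): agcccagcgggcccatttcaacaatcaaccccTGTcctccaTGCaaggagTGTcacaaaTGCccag
Ighg2c (chr12:113288263-113288325): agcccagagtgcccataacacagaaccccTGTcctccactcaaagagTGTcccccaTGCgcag
Ighg3 (chr12:113360529-113360576): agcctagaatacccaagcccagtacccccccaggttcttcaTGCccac
The Ighg1 exon has 39 bases and 4 cysteine codons, and the Ighg2b exon has 66 bases and also 4. The Ighg2c exon has 63 bases and 3 cysteine codons, and the Ighg3 exon has 48 bases and 1. None of the 4 hinge exons occurs in the same letters in another annotated transcript.

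Outside the hinge, Ighg2b and Ighg2c are alike enough to exchange short reads. Over 1007 aligned bases they were 85.9% identical, and their longest identical stretch, 78 bases from position 565 of the Ighg2b transcript, is shown because a 51-base read lying in it fits both genes.
Ighg2b and Ighg2c: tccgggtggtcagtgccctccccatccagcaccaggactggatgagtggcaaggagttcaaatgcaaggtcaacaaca
Transcripts that carried 1 read were most often covered over 51 bases, which was taken as the read length. Of the 960 windows of 51 bases in Ighg2b, 54 (5.63%) were present letter for letter in Ighg2c, and 20.7% matched another heavy chain gene with up to 2 mismatches. The same share at up to 2 mismatches was 21.1% for Ighg2c, 4.88% for Ighg3, 2.27% for Ighg1 and 0% for Ighm. No 51-base window of Igkc, Ighg1, Ighg3, Ighm or Jchain was found letter for letter in another gene. The sources used here do not say how reads with several matches were treated, so the values of Ighg2b and Ighg2c are uncertain with respect to each other.

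Sequencing gave 54975610 reads in all for the Cx43-deleted library, against 21170766 for C57BL6-BALB/c WT and 24830975 for C57BL6 WT. The level of 3 reads, used as the floor, is 0.0562 CPM, 0.143 CPM and 0.117 CPM in that order of libraries. The 10 endothelial, 10 astrocyte, and 10 pericyte and smooth muscle markers listed all had reads in every library, summing to 4854, 4218 and 6766 CPM, to 1659, 2038 and 2151 CPM, and to 2947, 3895 and 4247 CPM, in the same order. Markers of choroid plexus epithelium, which is not a vessel cell, also had reads in all 3 libraries, with sums of 3552, 2586 and 6691 CPM. Gja1 was present at 48.2 CPM in the Cx43-deleted library, against 203 CPM in C57BL6-BALB/c WT and 199.7 CPM in C57BL6 WT, a ratio of 0.237 (95% counting interval 0.226 to 0.249) and 0.241 (0.230 to 0.253). With 1 library per group no test was possible. All intervals cover counting error only, not differences between animals, and in vessel RNA fewer cells of a type and less RNA per cell cannot be told apart.

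Of the 6 genes, 5 were 2-fold or more above both WT libraries in the Cx43-deleted library and 1, Ighm, was 2-fold or more below both. Over all 16307 genes, 0.38% were that far above both and 0.35% that far below both. The members were chosen from this contrast, so nothing is read from the difference in these shares. The median log2 ratio of the 6 genes was 3.69 over C57BL6-BALB/c WT and 4.23 over C57BL6 WT, where the medians over all genes were -0.0032 and -0.016. These medians depend on the pseudocount, since the WT levels of the IgG genes lie below it: they were 4.49 and 5.53 with 0.1 CPM, and 3.25 and 3.35 with 1 CPM. Against each WT library alone the count was the same: 5 members were 2-fold or more higher and 1 lower, where 0.908% of all genes were that much higher and 0.932% that much lower than in C57BL6-BALB/c WT, and 1.48% and 2.49% in the comparison to C57BL6 WT. Each member was counted on 1 matched transcript.

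**Figure D1:**
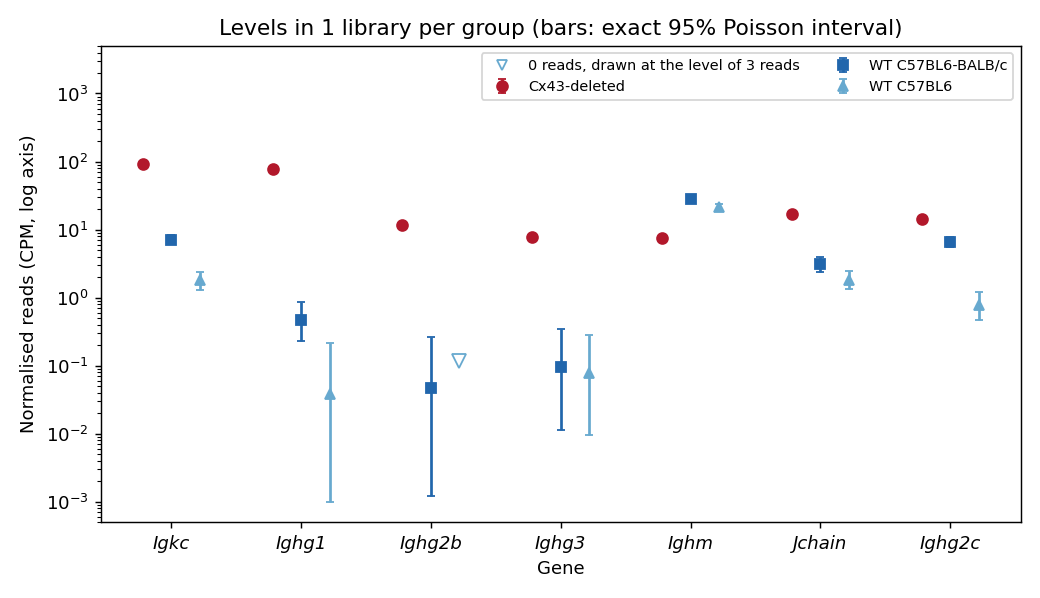
Normalised reads (CPM, log axis) of the 6 genes and of Ighg2c in the Cx43-deleted, C57BL6-BALB/c WT and C57BL6 WT libraries, with exact 95% Poisson intervals as bars. Igkc, the IgG genes and Jchain are highest in the Cx43-deleted library, where Ighm is lowest at 7.54 CPM, and Ighg2b had 0 reads in C57BL6 WT, drawn as an open triangle at the level of 3 reads.

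Igkc (ENSMUSG00000076609, chr6:70726435-70726966 on the plus strand of GRCm38) encodes the constant part shared by all kappa light chains, the light chain of most mouse antibodies. It had 4849 reads in the Cx43-deleted library, against 150 in C57BL6-BALB/c WT and 46 in C57BL6 WT. In normalised reads this was 90.8 CPM (88.2 to 93.4), against 7.13 CPM (6.04 to 8.37) and 1.79 CPM (1.31 to 2.38). The 3 libraries stood apart from each other beyond counting error. The fold over C57BL6-BALB/c WT was 12.7 (10.8 to 15.1), and over C57BL6 WT it was 50.8 (38.0 to 69.4). Its ratio ranked 6 from the highest among 16307 genes against C57BL6-BALB/c WT, and 2 against C57BL6 WT. The reads lay along the whole deposited transcript of 323 bases, with 0 bases uncovered in the Cx43-deleted library, 3 in C57BL6-BALB/c WT and 34 in C57BL6 WT.

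The kappa chain took nearly all light chain constant reads that could be counted. Iglc2, a lambda light chain constant gene, had 23 reads in the Cx43-deleted library, against 0 in C57BL6-BALB/c WT and 3 in C57BL6 WT. Igkc thus held 99.5%, 100% and 93.9% of the reads on Igkc and Iglc2 in those libraries. Iglc1, Iglc3 and Iglc4 had no matched transcript and were not analysed here.

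Ighg1 (ENSMUSG00000076614, chr12:113325240-113330523, minus strand) is the constant gene of IgG1, an IgG class of mouse serum. It had 4100 reads in the Cx43-deleted library, against 10 in C57BL6-BALB/c WT and 1 in C57BL6 WT. The level was 76.7 CPM (74.4 to 79.1), against 0.476 CPM (0.228 to 0.875) and 0.0389 CPM (0.00098 to 0.217). Among all genes tested, its log2 ratio ranked 1 from the highest in both comparisons. The fold was 161 (87.7 to 337) over C57BL6-BALB/c WT and 1974 (354 to 78004) over C57BL6 WT, the second against 1 read. All 974 bases of the transcript had reads in the Cx43-deleted library, while 640 bases had none in C57BL6-BALB/c WT and 923 had none in C57BL6 WT.

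Ighg2b (ENSMUSG00000076613, chr12:113302965-113307933, minus strand), the constant gene of IgG2b, had 626 reads in the Cx43-deleted library, against 1 in C57BL6-BALB/c WT and 0 in C57BL6 WT. Its level of 11.7 CPM (10.8 to 12.7) in the Cx43-deleted library stood against 0.0476 CPM (0.0012 to 0.265) in C57BL6-BALB/c WT and an upper limit of 0.117 CPM, the level of 3 reads, in C57BL6 WT. The gene was therefore near or below the floor in both WT libraries. The fold over C57BL6-BALB/c WT was 246 (44.1 to 9746), against 1 read, and the level was at least 100.5-fold higher than in C57BL6 WT, taking 3 reads there. In the Cx43-deleted library 93.0% of its 1010 bases were covered and 71 were not.

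Ighg3 (ENSMUSG00000076615, chr12:113356224-113361232, minus strand), the constant gene of IgG3, had 416 reads in the Cx43-deleted library, against 2 in each WT library. The levels were 7.79 CPM (7.06 to 8.57), against 0.0951 CPM (0.0115 to 0.344) in C57BL6-BALB/c WT and 0.0777 CPM (0.0094 to 0.281) in C57BL6 WT. As with the other IgG genes listed, the WT intervals lay wholly below that of the Cx43-deleted library. The fold was 81.9 (22.5 to 678) and 100.2 (27.6 to 829.8) in that order, each against 2 reads. Only 3 of the 992 bases were uncovered in the Cx43-deleted library, against 919 in C57BL6-BALB/c WT and 921 in C57BL6 WT.

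Ighm (ENSMUSG00000076617, chr12:113418558-113422730, minus strand), the constant gene of IgM, ran the other way. It had 403 reads in the Cx43-deleted library, against 598 in C57BL6-BALB/c WT and 554 in C57BL6 WT, although the Cx43-deleted library was the deepest. The level was 7.54 CPM (6.82 to 8.32), against 28.4 CPM (26.2 to 30.8) and 21.5 CPM (19.8 to 23.4). The intervals of the 3 libraries did not overlap. The ratio was 0.265 (0.233 to 0.301) to C57BL6-BALB/c WT and 0.350 (0.307 to 0.399) to C57BL6 WT, which ranked 37 and 100 from the lowest of 16307 genes. Coverage of its 1367 bases was complete or nearly so everywhere, with 0, 6 and 0 bases uncovered in the Cx43-deleted, C57BL6-BALB/c WT and C57BL6 WT libraries.

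Jchain (ENSMUSG00000067149, chr5:88519809-88527891, minus strand) encodes the small joining chain. It had 908 reads in the Cx43-deleted library, against 65 in C57BL6-BALB/c WT and 47 in C57BL6 WT. The level was 17.0 CPM (15.9 to 18.1), against 3.09 CPM (2.39 to 3.94) and 1.83 CPM (1.34 to 2.43). The Cx43-deleted library was highest, and the intervals of the WT libraries overlapped each other. The fold was 5.50 (4.27 to 7.18) over C57BL6-BALB/c WT and 9.30 (6.94 to 12.8) over C57BL6 WT, the smallest of the 5 genes that were higher. Of 1263 bases, 0 were uncovered in the Cx43-deleted library, against 201 in C57BL6-BALB/c WT and 289 in C57BL6 WT. Set against Ighm, whose product it joins, Jchain had 2.25 reads per Ighm read in the Cx43-deleted library, against 0.109 in C57BL6-BALB/c WT and 0.0848 in C57BL6 WT. J chain also joins IgA, whose constant gene Igha had no matched transcript, so this ratio covers only 1 of its partners.

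**Figure D2:**
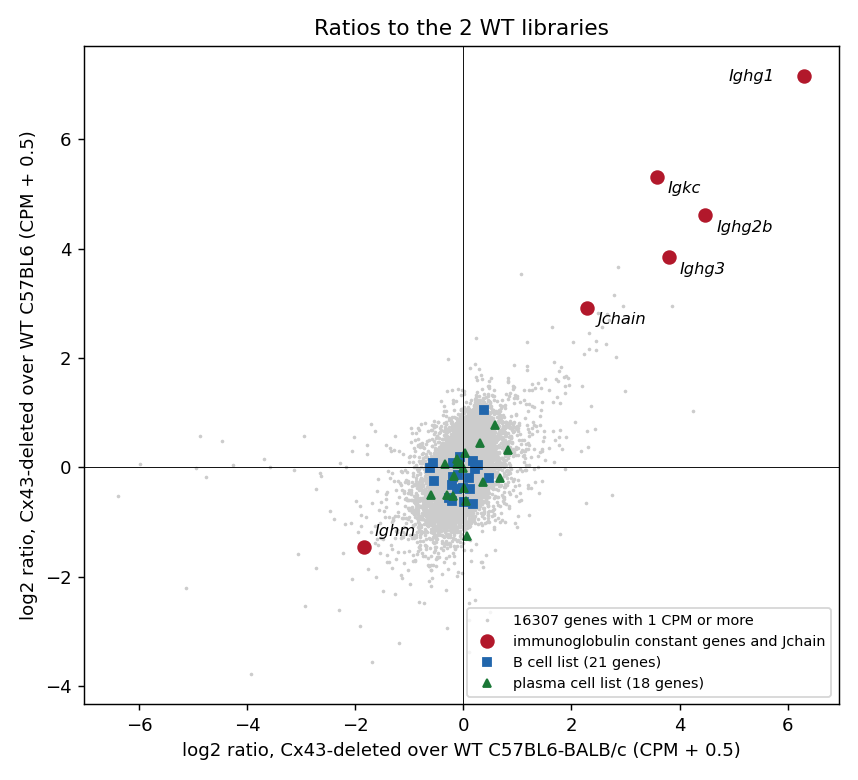
Log2 ratio of the Cx43-deleted library to C57BL6-BALB/c WT (x axis) and to C57BL6 WT (y axis), each of CPM + 0.5, for 16307 genes (grey), the 6 antibody genes (red), 21 B cell genes (blue) and 18 plasma cell genes (green). Igkc, Ighg1, Ighg2b, Ighg3 and Jchain lie at the upper right and Ighm at the lower left. None of the B cell and plasma cell genes is 2-fold or more from both WT libraries in the same direction. Single genes of these lists lie beyond 2-fold on the y axis alone, in both directions. The pseudocount draws genes with few reads towards 0.

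Of the heavy chain constant genes not among the 6, Ighg2c (ENSMUSG00000076612, chr12:113285325-113288932, minus strand), the constant gene of IgG2c, had 765 reads in the Cx43-deleted library, against 139 in C57BL6-BALB/c WT and 20 in C57BL6 WT. C57BL/6 mice carry Ighg2c where BALB/c mice carry Ighg2a, an allele that had no matched transcript here. The levels were 14.3 CPM (13.3 to 15.4), against 6.61 CPM (5.56 to 7.81) and 0.777 CPM (0.475 to 1.20). The Cx43-deleted library was highest and the WT libraries also stood apart. The fold was 2.17 (1.81 to 2.61) over C57BL6-BALB/c WT and 18.4 (11.8 to 30.3) over C57BL6 WT. The breadth of coverage did not follow the reads: 62.0% of its 1007 bases had a read in the Cx43-deleted library, against 87.0% in C57BL6-BALB/c WT and 65.7% in C57BL6 WT. Ighe, the constant gene of IgE, had 2 reads in the Cx43-deleted library, against 0 in either WT library, which allows up to 0.143 CPM in C57BL6-BALB/c WT and 0.117 CPM in C57BL6 WT. Igha, Ighd and Ighg2a had no matched transcript and were not analysed here.

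**Figure D3:**
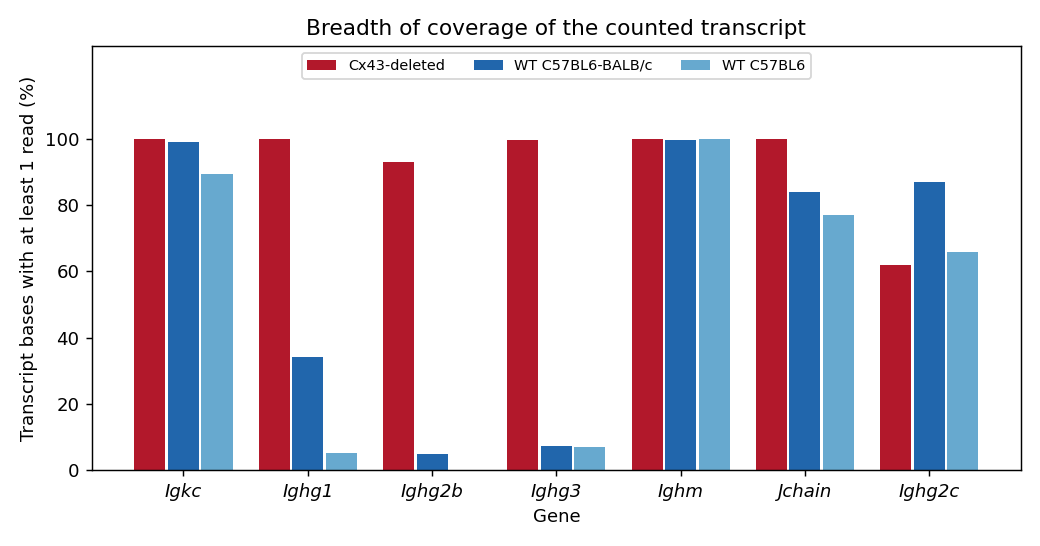
Share of the bases of the counted transcript with at least 1 read (%), for the 6 genes and Ighg2c, in the Cx43-deleted, C57BL6-BALB/c WT and C57BL6 WT libraries. Ighg1 is covered over 100% of its bases in the Cx43-deleted library, against 34.3% and 5.24% in the WT libraries, while Ighg2c is covered least broadly in the Cx43-deleted library, at 62.0%.

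Per base of transcript, the order of the genes differed among the libraries. In the Cx43-deleted library Igkc stood at 281 RPKM (CPM per kilobase of transcript; 273 to 289), followed by Ighg1 at 78.8 (76.4 to 81.2). Ighg2c at 14.2 (13.2 to 15.3) and Jchain at 13.5 (12.6 to 14.4) came next and did not differ beyond counting error. Ighg2b at 11.6 (10.7 to 12.5), Ighg3 at 7.85 (7.11 to 8.64) and Ighm at 5.52 (4.99 to 6.08) were lowest. In C57BL6-BALB/c WT, Igkc at 22.1 RPKM (18.7 to 25.9) and Ighm at 20.8 (19.2 to 22.5) headed the order and overlapped, with Ighg2c at 6.56 and Jchain at 2.45. In C57BL6 WT, Ighm came first at 15.8 RPKM (14.5 to 17.1), with Igkc at 5.54 (4.05 to 7.38) and Jchain at 1.45 (1.06 to 1.92) after it. Ighm was thus the lowest of these genes in the Cx43-deleted library, level with Igkc in C57BL6-BALB/c WT and the highest in C57BL6 WT.

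Within each library, reads on the 6 heavy chain constant genes with a matched transcript were divided by class, a share that does not depend on how libraries are scaled. IgG genes took 93.6% (exact binomial 95% interval 92.95 to 94.2) of 6312 heavy chain reads in the Cx43-deleted library, against 20.3% (17.4 to 23.3) of 750 reads in C57BL6-BALB/c WT and 3.99% (2.54 to 5.92) of 577 reads in C57BL6 WT. Ighm took 6.38% (5.79 to 7.02), against 79.7% (76.7 to 82.6) and 96.0% (94.1 to 97.5). The 3 intervals were apart for either class, so the WT libraries also differed from each other beyond counting error. These shares leave out Igha, Ighd and Ighg2a, which had no matched transcript. They also leave out unmatched transcripts of the heavy chain stretch. One of these, ENSMUST00000103412, overlaps no matched gene. It had 812 reads in the Cx43-deleted library, against 34 in C57BL6-BALB/c WT and 23 in C57BL6 WT.

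The IgG classes were not in the same proportions. Ighg1 held 64.96% (63.8 to 66.1) of heavy chain reads in the Cx43-deleted library, against 1.33% (0.641 to 2.44) in C57BL6-BALB/c WT and 0.173% (0.0044 to 0.962) in C57BL6 WT. Ighg2c held 12.1% (11.3 to 12.95), against 18.5% (15.8 to 21.5) and 3.47% (2.13 to 5.30). The IgG share of C57BL6-BALB/c WT was therefore almost all Ighg2c, and the 3 listed IgG genes together held 1.73% (0.926 to 2.95) there and 0.520% (0.107 to 1.51) in C57BL6 WT, against 81.5% (80.5 to 82.4) in the Cx43-deleted library. The shares of Ighg2b and Ighg3 in the Cx43-deleted library were 9.92% (9.19 to 10.7) and 6.59% (5.99 to 7.23).

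**Figure D4:**
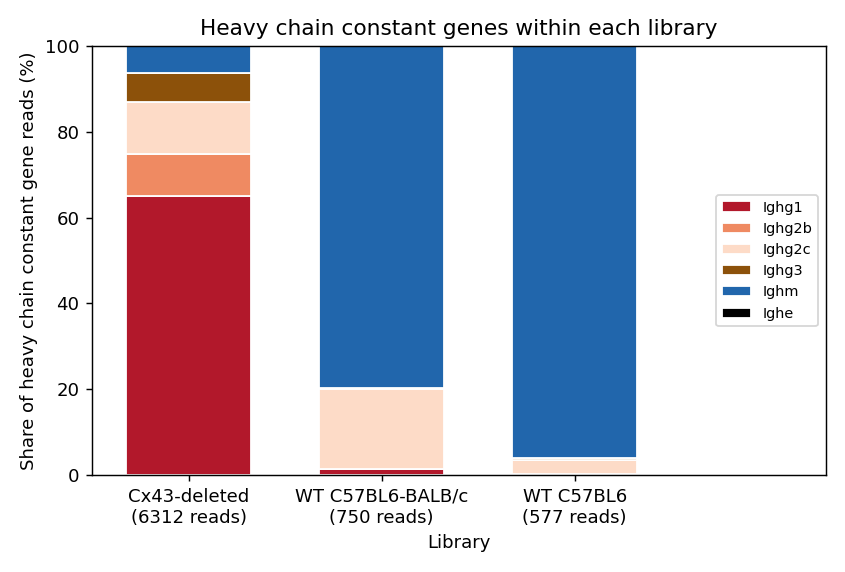
Share of heavy chain constant gene reads (%) on each gene, stacked within the Cx43-deleted (6312 reads), C57BL6-BALB/c WT (750 reads) and C57BL6 WT (577 reads) libraries. Ighg1 fills 64.96% of the Cx43-deleted column, and Ighm fills 79.7% and 96.0% of the WT columns. Heavy chain genes without a matched transcript are left out.

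Reads on the immunoglobulin constant genes with a matched transcript, light and heavy, were 11184 in the Cx43-deleted library. They were 900 in C57BL6-BALB/c WT and 626 in C57BL6 WT. Their summed level was 209 CPM (205 to 213), against 42.8 CPM (40.1 to 45.7) and 24.3 CPM (22.5 to 26.3). The kappa chain was in excess over the heavy chain genes counted in the Cx43-deleted library and not in the WT libraries. Reads per base on Igkc divided by reads per base on these heavy chain genes gave 2.38, against 0.789 in C57BL6-BALB/c WT and 0.333 in C57BL6 WT. Igha, Ighd and Ighg2a had no matched transcript, so their reads are missing from this ratio.

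Variable genes encode the antigen-binding part, and they had no role in choosing the 6 genes, although their reads come from the same libraries and, in part, from the same transcripts. Of 191 variable genes with a matched transcript (94 kappa, 3 lambda and 94 heavy), 44 had 3 or more reads in the Cx43-deleted library, against 3 in C57BL6-BALB/c WT and 1 in C57BL6 WT. These counts depend on depth: 3 reads are 0.0562 CPM in the Cx43-deleted library, against 0.143 and 0.117 CPM. The same counts over all genes are not given here. The summed reads of the variable genes were 1349, against 49 and 16. This made a fold of 10.8 (8.15 to 14.7) over C57BL6-BALB/c WT and 40.6 (24.9 to 71.2) over C57BL6 WT. Kappa variable genes alone were 11.4-fold (8.25 to 16.3) and 51.8-fold (28.1 to 108) higher, beside the 12.7-fold and 50.8-fold of Igkc. Heavy variable genes were 9.92-fold (5.30 to 20.9) and 24.3-fold (10.3 to 75.4) higher.

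The reads in the Cx43-deleted library lay on 77 variable genes, and the 10 genes with the most reads held 930 of 1349. Of the 77, 55 had 0 reads in both WT libraries, and 28 of those had 3 or more reads in the Cx43-deleted library. In the other direction, 5 of the 27 variable genes with a read in a WT library had 0 in the Cx43-deleted library. The WT libraries had only 49 and 16 variable gene reads, so these counts depend on the number of reads. No such counts over all genes are given beside them. At 16 reads, the smallest sum, the number of genes expected with a read came to 11.0 for the Cx43-deleted library and 7.64 for C57BL6-BALB/c WT, against 14 observed in C57BL6 WT. At an equal number of reads the Cx43-deleted library thus stood above C57BL6-BALB/c WT and below C57BL6 WT, whose 16 reads lay on 14 genes.

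Igkv4-50 had the most kappa reads in the Cx43-deleted library, 181 of 1076 or 16.8% (14.6 to 19.2), over all 352 of its bases, against 0 in each WT library. Ighv1-81 had the most heavy chain reads there, 64 of 252 or 25.4% (20.1 to 31.2), also against 0 in each WT library. Iglv3 led the lambda genes with 15 of 21 reads. Other variable genes led the WT libraries. Igkv6-32 had 14 of 37 kappa reads in C57BL6-BALB/c WT, where the Cx43-deleted library had 2, and Ighv6-3 had 7 of 10 heavy reads there, against 2 in the Cx43-deleted library. In C57BL6 WT Igkv6-15 led with 3 of 10 kappa reads, and no heavy variable gene had more than 1. Many variable genes are near-copies of each other and strains differ in them, so the assignment of reads to single variable genes is uncertain.

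**Figure D5:**
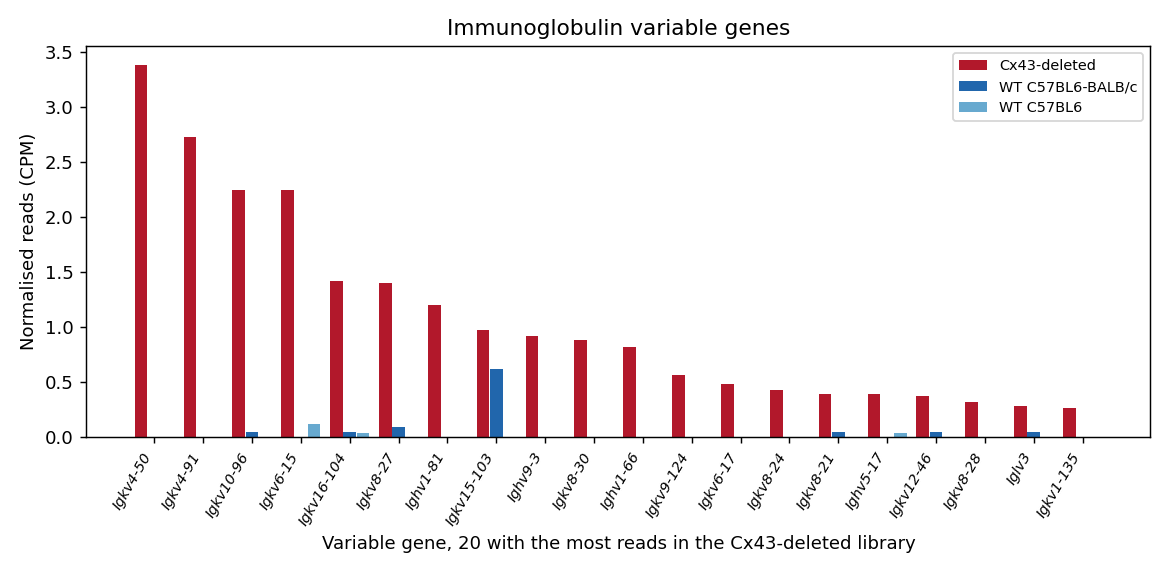
Normalised reads (CPM) of the 20 variable genes with the most reads in the Cx43-deleted library, in the Cx43-deleted, C57BL6-BALB/c WT and C57BL6 WT libraries. Igkv4-50 is at 3.39 CPM in the Cx43-deleted library with 0 reads in both WT libraries, and Igkv15-103, with 52 reads against 13 and 0, is the gene of the 20 with the highest WT level.

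Reads on kappa variable genes per 100 reads on Igkc had overlapping intervals in the libraries: 22.2 (20.8 to 23.7) in the Cx43-deleted library, against 24.7 (16.7 to 35.5) in C57BL6-BALB/c WT and 21.7 (9.78 to 43.7) in C57BL6 WT. Heavy variable reads per 100 heavy constant reads were fewer and differed: 3.99 (3.51 to 4.53) in the Cx43-deleted library, against 1.33 (0.637 to 2.47) and 0.867 (0.280 to 2.03). The intervals of the WT libraries overlapped each other and lay below that of the Cx43-deleted library. The heavy constant reads leave out Igha, Ighd and Ighg2a, and the heavy variable reads cover only genes with a matched transcript.

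Genes that B cells use to sense antigen and to keep their identity were read beside the antibody genes. Of 22 listed B cell genes 21 were matched, none of them at 0 reads in any library, and 0 were 2-fold or more above or below both WT libraries, which is near the shares of 0.38% and 0.35% over all genes. Only 9 of the 21 reached 1 CPM, the base of those shares, and the pseudocount draws the ratios of the lower ones towards 0. At any size, 3 exceeded both WT libraries and 9 were lower than either, where the shares over all genes with 1 CPM or more were 33.6% and 35.7%. Their median log2 ratio was -0.07 over C57BL6-BALB/c WT and -0.19 over C57BL6 WT. Their summed level was 71.6 CPM in the Cx43-deleted library, against 75.3 CPM and 86.2 CPM, of which Ebf1, a B cell transcription factor that pericytes also express, made up 47.7, 52.1 and 62.5 CPM. Cd79a, a signalling chain of the B cell receptor, was at 0.749 CPM, against 0.571 and 0.777 CPM. The adaptor Blnk lay furthest above both WT libraries, at 8.87 CPM in the Cx43-deleted library, against 6.66 and 4.003 CPM. The low-affinity IgE receptor gene Fcer2a lay below both, at 0.861 CPM, against 1.47 and 1.13 CPM. The IgM-associated surrogate light chain genes of B cell precursors summed to 0.505 CPM, against 0.809 and 0.855 CPM.

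Of 18 listed plasma cell genes, all matched and none at 0 reads, 16 reached 1 CPM and 0 were 2-fold or more from both WT libraries, which is near the shares of 0.38% and 0.35% over all genes. At any size, 4 exceeded both WT libraries and 4 were lower than either, beside 33.6% and 35.7% of all genes, with median log2 ratios of 0.0048 and -0.09. The sum was 524 CPM in the Cx43-deleted library, against 570 CPM in C57BL6-BALB/c WT and 620 CPM in C57BL6 WT. Several genes of this list serve the secretory pathway of other cells too, Xbp1 and Txndc5 among them, at 121 and 81.5 CPM in the Cx43-deleted library. Irf4, a transcription factor needed for plasma cells, was at 2.47 CPM, against 1.47 and 1.24 CPM. Mzb1, a chaperone of antibody secretion, was at 2.06 CPM, against 0.951 and 1.55 CPM. Sdc1, the plasma cell surface marker CD138, lay below both at 4.21 CPM, against 6.61 and 6.22 CPM, and is also made by epithelia. Tnfrsf17, the plasma cell survival receptor BCMA, had 11 reads in the Cx43-deleted library, against 1 in C57BL6-BALB/c WT and 9 in C57BL6 WT. In normalised reads this was 0.206 CPM, against 0.0476 and 0.350 CPM, so C57BL6 WT was highest. Igkv15-103, Cd79a, Ebf1, Xbp1, Tnfrsf17 and, among the genes that follow, Fcgrt, Fcer1a, Pigr and Lcn2 were singled out after their values were seen.

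The class switch genes were listed because the heavy chain classes differed. Of the 11 genes, all matched, 3 exceeded both WT libraries and 4 were lower than either, beside 33.6% and 35.7% of all genes. None was 2-fold from both, beside 0.38% of all genes above and 0.35% below. Batf, a transcription factor required for switching, was at 0.973 CPM, against 1.19 and 2.49 CPM. Among 8 matched cytokine genes that keep plasma cells alive or attract them, 2 lay above both, 2 below both and none at 2-fold. The shares over all genes are those just given. Tnfsf13b, the B cell survival factor BAFF, was at 3.91 CPM, against 2.52 and 2.18 CPM. Cxcl12, a plasma cell attractant that vessels make in quantity, was at 348 CPM, against 369 and 648 CPM.

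Of 10 matched Fc receptor genes, whose products bind antibodies, 7 reached 1 CPM. At any size, 0 of the 10 were higher than in both WT libraries and 6 were lower than in either, beside 33.6% and 35.7% of all genes, with median log2 ratios of -0.04 and -0.50. Fcer1a, Pigr and Fcamr had 3 reads or fewer in every library and add nothing to these counts that can be read. Fcgr2b, the inhibitory IgG receptor, was at 5.99 CPM in the Cx43-deleted library, against 7.85 and 9.45 CPM. Fcgrt, the receptor that carries IgG across endothelium, was at 115 CPM, against 118 and 163 CPM. Fcrls, a microglial Fc receptor-like gene, was at 11.3 CPM, against 16.8 and 30.3 CPM.

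Markers of other blood and border cells were read beside the antibody genes. Over all genes with 1 CPM or more, 33.6% were above both WT libraries at any size and 35.7% below both. The 10 matched markers of border macrophages summed to 204 CPM in the Cx43-deleted library, against 176 CPM in C57BL6-BALB/c WT and 239 CPM in C57BL6 WT. Of these, 4 exceeded both WT libraries and 2 were lower than either, with Cd163, a scavenger receptor, at 16.4 CPM, against 8.66 and 8.36 CPM, and Siglec1, a sialic acid receptor, at 5.45 CPM, against 2.71 and 3.61 CPM. Cbr2, a carbonyl reductase gene, lay below both at 7.09 CPM, against 9.42 and 8.71 CPM. The 15 T cell genes summed to 23.3 CPM, against 23.5 and 29.8 CPM, with 6 above both WT libraries and 4 below both. Zap70, a T cell receptor kinase gene, lay below both at 7.19 CPM, against 9.70 and 13.4 CPM. Cd8a, the co-receptor of cytotoxic T cells, had 24 reads in the Cx43-deleted library, against 3 and 4, and Trbc1, a T cell receptor constant gene, had 7 reads, against 0 and 0. With a pseudocount of 0.1 CPM, 2 of the 15 were 2-fold or more above both WT libraries, against 0 with 0.5 CPM. Of all 16307 genes with 1 CPM or more, 76 were that far above both with 0.1 CPM, against 62 with 0.5 CPM. The 7 red cell genes summed to 152 CPM, against 192 and 344 CPM, and the 10 neutrophil genes to 46.7 CPM, against 53.4 and 215 CPM, with 8 of the neutrophil and 6 of the red cell genes below both WT libraries. The summed red cell and neutrophil markers were thus lowest in the Cx43-deleted library. Of the neutrophil sums, Lcn2 alone made up 34.9 CPM in the Cx43-deleted library, against 30.0 and 189.7 CPM. The part of any of these cell types in the antibody gene levels was not tested.

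Between the WT libraries, the C57BL6-BALB/c one was higher for the 4 members with enough reads for a fold and a counting interval above 1. Igkc was 3.99-fold (2.85 to 5.68) higher in C57BL6-BALB/c WT than in C57BL6 WT, and Jchain 1.69-fold (1.14 to 2.52). Ighm was 1.32-fold (1.17 to 1.49) higher, and Ighg1 12.2-fold (1.74 to 531) on 10 reads against 1. Of the 6 genes 1, Igkc, was 2-fold or more higher on the scale with the pseudocount, where 1.12% of all genes were, and 0 were 2-fold or more lower, where 1.7% were. Ighg2c was 8.50-fold (5.30 to 14.4) higher in C57BL6-BALB/c WT. For Ighg2b (1 read against 0) and Ighg3 (2 against 2) no fold was formed. The WT libraries come from different strains, and strain, animal and dissection cannot be told apart with 1 library each.

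Genes outside the antibody families whose pattern was nearest were found by the distance between their pair of log2 ratios and those of Igkc, Jchain or Ighm, over 3 libraries. Nearest to Igkc were Prm1 (distance 1.802), a sperm chromatin protein gene, Gbp2b (2.31), an interferon-induced guanylate-binding protein gene, Pmaip1 (2.39), a promoter of apoptosis, Serpina3i (2.73), a protease inhibitor gene, and Jchain itself (2.73). Prm1 had 313 reads in the Cx43-deleted library, against 8 and 0, and Pmaip1 was at 62.9 CPM, against 3.85 and 7.73 CPM. Immunoglobulin genes were left out of this search, and Ighg2b and Ighg3 lay nearer to Igkc, at distances of 1.14 and 1.49. Nearest to Jchain were Serpina3i (0.22), the complement factor Cfd (0.44), Gbp2b (0.56), Serpina3n (0.62) and Ubtd2 (0.67). Serpina3n, another protease inhibitor gene, was at 84.6 CPM, against 15.0 and 16.6 CPM, and the Serpina3 genes are near-copies whose reads may be shared. Nearest to Ighm were Nr4a1 (0.22) and Egr4 (0.30), transcription factors of the early response of cells to stimulation, Thbs1 (0.26), a matrix glycoprotein gene, Krt15 (0.28), a keratin gene, and Adgrf4 (0.28). Nr4a1 was at 173 CPM in the Cx43-deleted library, against 540 CPM in C57BL6-BALB/c WT and 453 CPM in C57BL6 WT. With 1 library per group these likenesses describe these libraries only.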

How the data were processed

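Brain vessel RNA was sequenced in 3 libraries, grouped by their labels with 1 library per group. Per the file headers, the authors deposited whole-number counts of reads, not normalised, for 82813 Ensembl transcripts, along with each transcript's length and how many of its bases lacked a read. A further deposited column holds every count as a fraction of the library total, from which the totals were obtained. Summed counts were 2.55, 2.53 and 2.45 times those totals in the Cx43-deleted, C57BL6-BALB/c WT and C57BL6 WT tables: overlapping transcripts each receive the same read. TruSeq RNA v2, the kit per the labels' protocols, keeps no strand. The submitters' processing notes name CASAVA 1.8.2, Bowtie and mm10. Neither the counting program nor how multiply matching reads were handled is given in the sources used here.

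Coordinates in the tables belong to an earlier build. They were used for a chromosome check and to place unmatched transcripts in the heavy chain stretch, and no printed position comes from them. GENCODE M21 on GRCm38 supplied names and positions for 69375 transcripts (83.8%). Of these, 213 lay on a different chromosome and were left out. The other 13438 transcripts had no match. Each gene was read on its transcript with the highest mean level. CPM is reads over the product of library total and TMM factor (0.972, 0.993, 1.04; from edgeR 4.0.16 in R 4.3.3). RPKM is CPM per kilobase of deposited length, which for the constant genes is coding length with the stop codon. A level of 1 CPM equals 53.4, 21.0 and 25.7 reads. Log2 ratios carry a pseudocount of 0.5 CPM, so ratios of low genes are understated, and cover genes reaching 1 CPM in any library. Folds have exact binomial and levels exact Poisson 95% intervals (scipy 1.17.1, Python 3.11.15). PCR reads are not independent molecules, so the intervals and the floor of 3 reads per library cover counting error only. No test was possible and no p-value is given.

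The 6 genes and the gene lists were chosen with earlier results of these data known. Names in the text follow a rule: the 6 genes, all other immunoglobulin constant genes, the leading variable gene of each chain in each library, Gja1, examples from the up to 4 genes of each list furthest outside both WT libraries, and the 5 genes nearest in pattern to Igkc, Jchain and Ighm. The 51-base window and the mismatch search were chosen after the read length was known from the tables. The 2-fold calls and the fold intervals were first tested on simulated counts, and the other calculations were not. The alternatives were DESeq2 1.42.0 size factors, no TMM factor, pseudocounts of 0.1 and 1, counts summed over transcripts, no filter or 5 CPM, reads per base, and variable gene minimums of 1 and 10 reads. Some genes of the lists are counted but not reported here by name.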

Additional observations from a re-analysis of the deposited data

Results flagged for a closer look

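Transcripts that matched no annotated gene and lay, by their deposited coordinates, in the stretch of the heavy chain constant genes are outside the comparisons above. Of those with more than 3 reads in the Cx43-deleted library, 6 stood above the level in both WT libraries. Transcripts overlapping Ighe had 2 reads there, against 0 in either WT library. Others were lower. The transcript overlapping Ighm had 413 reads in the Cx43-deleted library, against 591 in C57BL6-BALB/c WT and 563 in C57BL6 WT, on the side of Ighm itself. Reads are counted on every transcript they overlap, so those that overlap a listed gene hold largely its reads over again. ENSMUST00000103419, which overlaps Ighg1, stood at 76.6 CPM in the Cx43-deleted library, with 4095 reads, against 10 in C57BL6-BALB/c WT and 1 in C57BL6 WT, and 164 of its 1181 bases were uncovered in the Cx43-deleted library. A shorter one overlapping Ighg1 stood at 17.6 CPM, with 938 reads, against 0 and 1. ENSMUST00000103412, which overlaps no matched gene, stood at 15.2 CPM, with 812 reads, against 34 and 23. Another without an overlap stood at 14.3 CPM, with 766 reads, against 32 and 23. The transcript overlapping Ighg2b stood at 11.5 CPM, with 616 reads, against 1 and 0. The transcript overlapping Ighg3 stood at 7.75 CPM, with 414 reads, against 3 and 2. The annotation used here gives none of them a gene name.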

How the results depend on the processing

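All 18 log2 ratios of the 6 genes kept their sign under each of the 7 alternatives, and all kept their side of 2-fold except Ighg1 between the WT libraries, at 2.05 with a pseudocount of 0.1, against 0.86. The sizes of the IgG ratios moved with the pseudocount, by up to 2.27 on the log2 scale at 0.1 (Ighg2b over C57BL6 WT, 6.88 against 4.61). At a pseudocount of 0.1, 87 genes instead of 57 were 2-fold below both WT libraries, and with 5 CPM or more, 37 instead of 62 were 2-fold above both. Per base of transcript, IgG genes held 95.3% of heavy chain reads in the Cx43-deleted library and 25.7% in C57BL6-BALB/c WT. Variable genes with 1 or more reads numbered 77, 16 and 14, and with 10 or more reads 24 in the Cx43-deleted library and 0 in C57BL6 WT. The numbers expected at the smallest sum of reads were 11.0 and 7.64. The causes were not tested, except that fewer genes pass a stricter minimum. No paired analysis was possible because each group has 1 library. Leaving out a replicate was not possible for the same reason. Depth limits the WT values of Ighg1, Ighg2b and Ighg3, which rest on 10 reads or fewer.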
